A study of Mus musculus with 4 samples.

Results

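CD8 T cells were taken here as barcodes of a pooled mouse liver single-cell matrix that held messages of the T cell receptor complex and of CD8 and none of CD4. A barcode marks 1 droplet, and a UMI is 1 counted RNA molecule. A member had at least 500 UMIs, at least 200 genes and under 20% mitochondrial UMIs, at least 2 UMIs of Cd3d, Cd3e and Cd3g together, at least 1 UMI of Cd8a and Cd8b1 together, no UMI of Cd4 or Cd79a, and fewer than 3 UMIs of C1qa, C1qb and C1qc together. Of 36150 barcodes that passed the cell filter, 589 were CD8 T cells (1.63%, exact 95% interval 1.501 to 1.77). The cells were thus selected on their measured values of these 10 genes, whose levels describe them and support nothing.

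The study followed hepatocellular carcinoma, the main cancer of liver cells, in mice whose tumors are started by induced genes. HCC-NL is normal liver of week 0. HCC-ES and HCC-MS are tumors of weeks 4 and 8, and HCC-LS is a tumor of week 10 by its own label or of week 12 by the series text. The deposited matrix joins 4 libraries by a barcode suffix, and no source used here pairs a suffix with a sample. The libraries are therefore given by number with no week, the pool counts as 1 sample, and no comparison below has a replicate. Strain, age, sex, the induced genes and the cells or promoter that carry them are not given in the sources used here, nor is the number of animals behind a library. Intervals are at 95% and cover counting error alone.

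CD8 T cells read peptides held by MHC class I on other cells, through a receptor of an alpha and a beta chain that each cell assembles from its own choice of V segments. Cells that have not met their antigen carry homing molecules such as Ccr7 and circulate between blood and lymph nodes. Once activated they divide, load granules with perforin and granzymes and secrete chemokines and interferon gamma, and under lasting stimulation, as in tumors, they take up inhibitory receptors such as PD-1.

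CD8 T cells were most frequent in library 2. They made up 1.39% (1.16 to 1.65) of the filtered barcodes of library 1, 3.35% (2.97 to 3.76) of library 2, 0.973% (0.791 to 1.18) of library 3 and 1.05% (0.843 to 1.28) of library 4, from 127, 272, 99 and 91 cells. Among barcodes that met the same Cd3, Cd79a and C1q conditions, the CD8 share was 23.1% (19.7 to 26.9) in library 1, 52.4% (48.0 to 56.8) in library 2, 20.2% (16.7 to 24.0) in library 3 and 46.2% (39.1 to 53.4) in library 4. Libraries 2 and 4 thus lay above libraries 1 and 3 on the second measure, with intervals apart. The median depth of the CD8 T cells was 2031, 4093, 2318 and 2958 UMIs in libraries 1 to 4, so the deeper cells were in the same pair of libraries, and the part of depth in finding a Cd8 UMI was not tested. For each CD4 T cell there were 3.53, 5.33, 2.75 and 4.14 CD8 T cells.

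**Figure D1:**
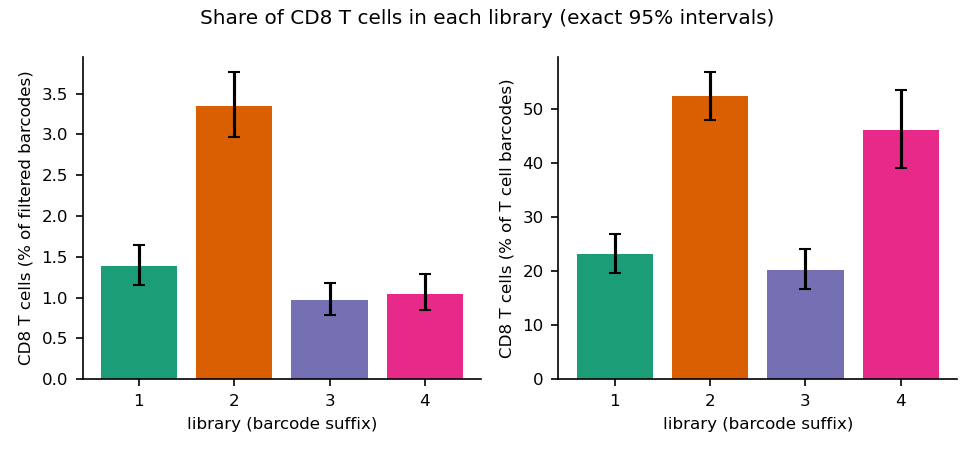
Bars give CD8 T cells as a percentage of filtered barcodes (left) and of T cell barcodes (right) in libraries 1 to 4, with exact 95% intervals as error bars. Library 2 stands highest on the left at 3.35%, and libraries 2 and 4 stand above libraries 1 and 3 on the right.

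T cell markers that the rule did not use were present. They are shared by all T cells, so the CD8 side of the label rests on the rule's own genes, and 0 of 8 receptor and CD3 genes were higher than in CD4 T cells. Trac, the constant region of the receptor alpha chain, had a UMI in 45.2% of the CD8 T cells, and Trbc2, a constant region of the beta chain, in 41.9%. The surface protein Thy1 was found in 73.0%, the kinase Lck in 65.7% and the adaptor Lat in 67.9%. In hepatocyte barcodes Trac stood at 0.0785 CPM (the gene's UMIs scaled to a fixed total), against 194.9 CPM in the CD8 T cells. The hepatocyte barcodes were chosen without a Ptprc or Cd3 UMI, so their low Trac level partly follows from that choice. Both Cd8 chains were read in 329 cells, Cd8a alone in 104 and Cd8b1 alone in 156, with a median of 7 Cd3 and 3 Cd8 UMIs per cell. At the edge of the rule stood 52 members with exactly 2 Cd3 UMIs and 132 with exactly 1 Cd8 UMI. Just outside were 58 barcodes with 1 Cd3 UMI, 6 with a Cd4 UMI, 8 with a Cd79a UMI and 14 with 3 or more C1q UMIs.

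Some RNA of other cells was counted in the same barcodes. The hepatocyte list gave 0.682, 0.928, 0.724 and 0.799% of the UMIs of CD8 T cells in libraries 1 to 4, against 6.78% in hepatocyte barcodes. The neutrophil list summed to 12.9, 2.60, 1253 and 422 CPM and the erythroid list to 19.3, 50.1, 2751 and 57.9 CPM in libraries 1 to 4. These 2 lists rested on few cells: 189 of the 330 UMIs of S100a9 and 418 of the 440 UMIs of Hbb-bs came from 1 cell each, in library 3. In library 4 a single cell held all 413 UMIs of Mpo, all 145 of Ctsg and 763 of the 764 of Elane, which are granule proteins of neutrophil precursors. Only 3 CD8 T cells had 10 or more UMIs of such genes, 2 in library 3 and 1 in library 4, and 37 had a doublet score above 0.25. Of the 589 cells, 10 held more than 20000 UMIs each (9 in library 2, 1 in library 4) and together 12.2% of all UMIs. No CD8 T cell shared its barcode sequence with a CD8 T cell of another library, and 17 shared it with some other filtered barcode.

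Levels of T cell genes differed widely between the libraries. A gene was called when its highest library was at least 2-fold its lowest with intervals apart, among genes with at least 50 UMIs. This was met by 86 of 159 measured genes of the 17 function lists, beside 31.6% of all 5653 genes, and the calls were highest in library 1 for 6, in library 2 for 33, in library 3 for 18 and in library 4 for 29 of the list genes. Over all genes the same calls made up 2.51% with library 1 highest, 18.7% with library 2, 3.2% with library 3 and 7.25% with library 4. Without library 1 the count was 53, without library 2 it was 47, and it was 50 with every cell thinned to 1000 UMIs.

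The called homing and quiescence genes were highest in library 1 or 3. Lef1, a transcription factor of naive T cells, was at 232, 78.7, 219 and 66.5 CPM in libraries 1 to 4. Its partner Tcf7 was at 199.8, 54.6, 164 and 52.1 CPM. The receptor for the survival factor interleukin 7, Il7r, was at 374, 200.3, 416 and 199.6 CPM. For these 3 genes the intervals of libraries 1 and 3 lay above those of libraries 2 and 4. Ccr7, the receptor that leads cells into lymph nodes, was at 206, 82.6, 305 and 179 CPM, with library 2 lowest. Of 12 measured genes of this list 7 were called, 3 highest in library 1 and 4 in library 3. Among those not called, Igfbp4 and Klf2 were highest in library 4 and lowest in library 1, with spreads of 1.95-fold and 1.59-fold. For Igfbp4 the intervals of libraries 2 and 4 lay above those of libraries 1 and 3. The beta chain constant regions were also higher in libraries 1 and 3, with Trbc1 at 177, 42.9, 201 and 34.7 CPM. Trbc2 was at 316, 128, 320 and 124 CPM, while Trac was at 229, 195, 204 and 156 CPM. Neither Trbc1 nor Trbc2 was called in the comparisons within CD8 T cells given below. Snrpg, outside the lists and picked after its values were seen, was at 967, 206, 829 and 168 CPM. The cause of these patterns was not tested.

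Several granule and chemokine genes were higher in libraries 2 and 4. Gzmb, the protease granzyme B, was at 151, 736, 431 and 654 CPM in libraries 1 to 4. At 1000 UMIs per cell it was found in 5.74, 27.7 and 12.4% of cells in libraries 1 to 3 and 27 of 90 cells in library 4. Gzmk, granzyme K, was at 51.6, 209, 44.6 and 185 CPM and in 4.10, 14.02, 1.03 and 14.4% of the thinned cells. Gzmm, granzyme M, was at 38.7, 121, 40.9 and 133 CPM. Ccl5, a chemokine stored in memory and effector cells, was at 5186, 7113, 4665 and 8284 CPM and in 32.0, 80.4, 38.1 and 75.6% of thinned cells. Gzma differed in order, at 587, 233, 937 and 498 CPM, and came from 12, 27, 15 and 16 cells. Of the granule list 8 of 11 genes were called, 3 highest in library 2, 2 in library 3 and 3 in library 4. Among them Serpinb6b was highest in library 3 and lowest in library 4, a spread of 6.75-fold. Of the cytokine and chemokine list 4 of 6 were called, with Ccl3 at 32.2, 187, 70.6 and 162 CPM and Ifng at 6.45, 63.7, 37.2 and 81.0 CPM.

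Inhibitory receptors were highest in library 2 for 5 of the 7 called genes among 10 measured, beside 1056 of 1789 calls over all genes. Pdcd1, which encodes PD-1, was at 12.9, 109, 18.6 and 46.3 CPM in libraries 1 to 4. Tigit was at 22.6, 126, 11.2 and 63.6 CPM and Lag3 at 12.9, 52.0, 3.72 and 14.5 CPM. Cd160 was highest in library 4, at 48.3, 124, 63.2 and 171 CPM. Tox, a transcription factor of exhausted cells, was at 25.8, 52.0, 40.9 and 31.8 CPM and was not called. Rgs16 had no UMI in library 1, and its 13 UMIs in library 3 came from 1 cell. In library 2 it stood at 69.6 CPM, below the 115 CPM of hepatocyte barcodes, so its level by library is not read as that of the T cells.

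Among regulators and receptors, library 4 was highest for all 4 called genes of the short-lived effector list and for 4 of the 5 called of the residence list. Ly6c2, a surface marker of memory and effector cells, was at 622, 1400, 695 and 1519 CPM. Cxcr3, a receptor for interferon-induced chemokines, was at 38.7, 96.2, 18.6 and 142 CPM, and Cxcr6, which holds T cells in the liver sinusoids, at 29.0, 71.5, 37.2 and 86.8 CPM. Eomes was at 32.2, 74.1, 7.43 and 60.7 CPM and Tbx21, which encodes T-bet, at 9.67, 52.7, 29.7 and 69.4 CPM. Both are master regulators of effector T cells.

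**Figure D2:**
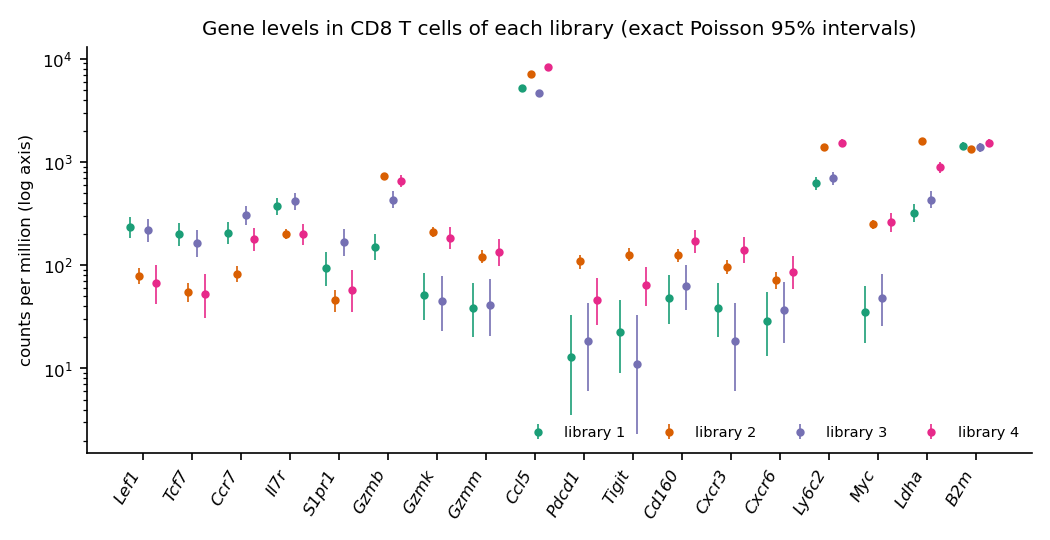
Points give the CPM of 18 genes in the CD8 T cells of libraries 1 to 4 on a log axis, with exact Poisson 95% intervals as lines. Lef1, Tcf7 and Il7r are higher in libraries 1 and 3, Gzmb, Gzmk, Ccl5, Cxcr3 and Myc are higher in libraries 2 and 4, and B2m spreads 1.16-fold.

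Myc and Ldha stood higher in libraries 2 and 4. Myc, a driver of cell growth, was at 35.5, 248, 48.3 and 260 CPM in libraries 1 to 4, and Ldha, lactate dehydrogenase A, at 319, 1593, 431 and 885 CPM. Hepatocyte barcodes, the main source of other RNA, held Myc at 1.59, 178, 19.7 and 199 CPM in the same libraries and Ldha at 904, 1604, 1006 and 1439 CPM, and the part of that RNA was not tested. Of 16 proliferation genes 10 were called, 8 of them highest in library 2, beside 1056 of 1789 calls over all genes. Among the 8, Ube2c was at 110, 293, 108 and 150.4 CPM. Mki67, a marker of dividing cells, was at 58.0, 93.6, 74.3 and 101 CPM and was not called. A UMI of Mki67 or Top2a was found in 103 CD8 T cells, in 7.09, 25.4, 11.1 and 15.4% of them by library, and in 4.10, 8.12, 6.19 and 7.78% once thinned to 1000 UMIs. Of 9 MHC class I genes 0 were called. B2m, the light chain of class I, was at 1434, 1325, 1383 and 1542 CPM, a spread of 1.16-fold, while Psmb8, a subunit of the immunoproteasome, spread 1.91-fold with libraries 2 and 4 above libraries 1 and 3. Immediate early and heat shock genes, which tissue dissociation induces, were called for 10 of 13. Library 1 was lowest for all 10 called, beside 841 of 1789 calls over all genes, as for Junb at 216, 780, 643 and 845 CPM. The part of sample handling was not tested.

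CD8 T cells carried more messages of cytotoxic granules and fewer of costimulation and help than the 145 CD4 T cells, taken by the same rule with Cd4 in place of Cd8. A gene counted as higher or lower when both sides together held at least 50 UMIs, its CPM ratio was at least 2 with an interval that excluded no change, and no library holding 20 or more cells of each side went the other way. In this comparison 1.44% of 6445 genes were higher and 1.43% lower. Of 12 measured granule genes 4 were higher and none lower. Gzmm was at 103.5 CPM (113 of 589 cells) against 1.82 CPM (1 UMI in 1 of 145 cells), a log2 ratio of 5.83 (3.34 to 11.14). Gzma was at 392 CPM from 70 cells against 19.97 CPM from 4 cells, a log2 ratio of 4.29 (3.45 to 5.30). Ctsw, a granule cysteine protease, was at 387 against 142 CPM, and Prf1, the pore-forming perforin, at 41.0 against 16.3 CPM (log2 1.33, 0.35 to 2.50).

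Receptors shared with NK cells were also higher in CD8 than in CD4 T cells, for 3 of 7 measured genes. Klrd1, a chain of the receptors that read nonclassical MHC, was at 128 against 29.0 CPM (log2 2.14, 1.42 to 2.96) and its partner Klrc1 at 56.0 against 12.7 CPM. Klra7 had 60 UMIs in CD8 and none in CD4 T cells, a log2 ratio of at least 2.16. Ly6c2 was at 1242 against 154 CPM (log2 3.01, 2.70 to 3.34) and Ccr7 at 136 against 65.4 CPM (log2 1.06). Among genes outside the lists, Tmem108 was at 37.0 CPM from 79 cells against 1.82 CPM from 1 cell. Prtn3, Elane, Mpo and Hba-a1 also met the rule, each with over 95% of its UMIs from 1 CD8 T cell.

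Lower in CD8 T cells were costimulatory receptors of helper and regulatory cells. Tnfrsf4, which encodes OX40, was at 35.7 against 334 CPM (log2 -3.22, -3.61 to -2.85) and Icos at 19.1 against 119.8 CPM (log2 -2.65, -3.22 to -2.09), 2 of the 3 lower genes among 14 of their list. Ctla4 was at 31.3 against 113 CPM and Ikzf2, a factor of regulatory T cells, at 24.8 against 113 CPM. Maf and Gata3, which control cytokine genes of helper cells, were at 10.2 against 105 CPM and 13.0 against 63.5 CPM, and Izumo1r, the folate receptor FR4 of regulatory and anergic CD4 T cells, at 17.9 against 107 CPM. Batf, Bhlhe40, Hif1a and Odc1 were also lower, with log2 ratios of -1.66, -1.41, -1.25 and -1.38. Gcg was called lower on 54 UMIs in 4 CD4 T cells, 1 of which held 85.2% of them. Interferon response genes were called in neither direction for 12 measured, and neither were 9 MHC class I genes.

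Several of these calls rested on 1 library. Without library 2 the log2 ratio was 0.85 for Ctsw, under the required size, and without library 3 it was 0.83 for Ccr7. Among the other named genes the call was lost for Cd160 (0.57) and Tyms (-0.86) without library 2, Ahr (-0.83) without library 3, Ccr2 (-0.94) without library 1 and Tnfrsf18 (-0.94) without library 4. Still called but moved by over 1.5-fold without library 2 were Gzmm (4.34), Ly6c2 (2.19), Klrc1 (3.04), Tnfrsf4 (-7.26), Ctla4 (-2.81), Ikzf2 (-3.32), Odc1 (-2.002) and Izumo1r (-3.70), and so were Klrd1 without library 3 (4.77), Gzmm without library 1 (4.14) and Tmem108 without library 4 (2.54). With cells thinned to 1000 UMIs the counts were 29 higher and 20 lower, against 93 and 92, and Klrd1 (1.49), Cd160 (1.04), Ccr7 (0.84), Batf (-1.80), Bhlhe40 (-1.40), Tnfrsf18 (-1.33) and Hif1a (-0.81) lost the call.

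Beside the 1016 T cells with no Cd4 or Cd8 UMI, CD8 T cells held less of several innate-like genes and more proliferation and inhibitory receptor messages. Of 7984 genes 1.49% were higher and 1.92% lower. The other cells were shallower, with a median of 1911.5 UMIs against 3047, and the class can hold T cells whose coreceptor was not read, which was not tested. Of 6 innate-like genes 4 were lower. Tcrg-C1, a constant region of the gamma delta receptor, was at 3.25 against 43.5 CPM (log2 -3.74, -4.99 to -2.71) and Trdc, the delta chain, at 3.65 against 18.5 CPM. Zbtb16, which encodes PLZF, the master factor of NKT cells, was at 2.84 against 23.8 CPM (log2 -3.07). Il4 had 2 UMIs in the CD8 T cells, at 0.812 against 70.2 CPM, and Cd40lg, the helper ligand, 4 UMIs, at 1.62 against 119.9 CPM. Klrb1c, known as NK1.1, was at 8.53 against 120.3 CPM (log2 -3.82), and 7 of 12 NK receptor genes were lower, among them Tyrobp at 87.7 against 318 CPM.

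Proliferation genes were higher in CD8 T cells for 11 of 16, with a median log2 ratio of 1.19 beside 0.06 over all genes. Rrm2, which makes DNA building blocks, was at 69.8 against 16.0 CPM (log2 2.13, 1.62 to 2.67), Birc5, or survivin, at 154 against 51.7 CPM and Cdk1 at 65.8 against 23.4 CPM. The count was 4 with the libraries weighted equally, 7 without library 3, 7 without the 10 cells of over 20000 UMIs and 1 of 11 in thinned cells. Of 12 inhibitory receptor genes 4 were higher, with Pdcd1 at 78.0 against 24.6 CPM (log2 1.66, 1.24 to 2.11) and Lag3 at 36.5 against 10.3 CPM. With equal library weights 1 of the 12 was higher, and Pdcd1 then had a log2 ratio of 0.69. Eomes was at 59.7 against 13.5 CPM (log2 2.14, 1.59 to 2.73). In thinned cells Eomes (2.01), Pdcd1 (1.20) and Klrb1c (-2.73) kept their direction and lost the call. Gzmm was again nearly all on one side, with 255 UMIs in 113 cells against 7 in 6 cells (log2 5.17, 4.11 to 6.501). Dapl1, a gene of naive T cells, was at 45.1 against 16.0 CPM. Receptor segments Trbv14 and Trav13-1 were higher by log2 ratios of 3.54 and 3.38.

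This comparison moved with the libraries. The 119 higher genes became 180 without library 1 and 72 without library 2, and Cdk1 (0.97) and Itga1 (-0.90) then missed the size without library 2. Without library 2 the log2 ratio was 4.49 for Gzmm, -2.94 for Tcrg-C1, -3.67 for Zbtb16, -4.74 for Il4, -5.56 for Cd40lg and -1.13 for Tyrobp, all still called, and without library 1 it was 3.99 for Trav13-1.

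The 309 NK cells (Nkg7 with Ncr1 or Klrb1c, no Cd3 or Cd8 UMI) differed from the CD8 T cells in their receptors. Of 6940 genes 2.18% were higher and 3.33% lower in CD8 T cells. All 13 measured NK receptor genes were lower: Klra4 was at 3.25 against 299 CPM (log2 -6.52, -7.75 to -5.53), Klra8 at 3.25 against 240.2 CPM, and the signalling adaptors Tyrobp and Fcer1g at 87.7 against 2698 CPM and 97.5 against 2302 CPM. Granule genes divided. Gzmk was at 168 against 4.27 CPM (log2 5.30, 3.93 to 7.18) and Gzmm was higher too, whereas 7 of 12 were lower, led by Gzma at 392 against 8073 CPM (log2 -4.36, -4.46 to -4.27) and Gzmc at 9.34 against 69.4 CPM. Xcl1, a chemokine that draws dendritic cells, was at 105 against 691 CPM, and Cma1, a chymase, had no UMI in CD8 T cells and 59 in NK cells.

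Higher than in NK cells were 6 of 12 homing genes and 5 of 8 receptor and CD3 genes. NK cells were taken with no Cd3 UMI and CD8 T cells with at least 2, so the second count partly follows from the choice of cells. Ccr7 was at 136 against 1.07 CPM (178 of 589 against 1 of 309 cells), Lef1 at 112 against 17.1 CPM (log2 2.71, 1.98 to 3.54) and Trac at 194.9 against 17.1 CPM. Cd5, a brake on receptor signals, had 220 UMIs in CD8 T cells and none in NK cells, a log2 ratio of at least 4.80. Dapl1 and Tnfrsf4 also had none in NK cells. Of 12 interferon response genes 5 were higher, with Ifi27l2a at 1247 against 169.8 CPM (log2 2.88, 2.65 to 3.12). None of 16 proliferation genes met the rule in either direction. Without library 2 the higher count was 95 in place of 151. The log2 ratio without library 2 was then 3.92 for Gzmk, -3.73 for Gzma, -5.83 for Klra4, -3.95 for Fcer1g and 3.35 as a bound for Cd5, without library 1 it was 5.05 for Ccr7, and without library 4 -7.64 for Klra4.

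**Figure D3:**
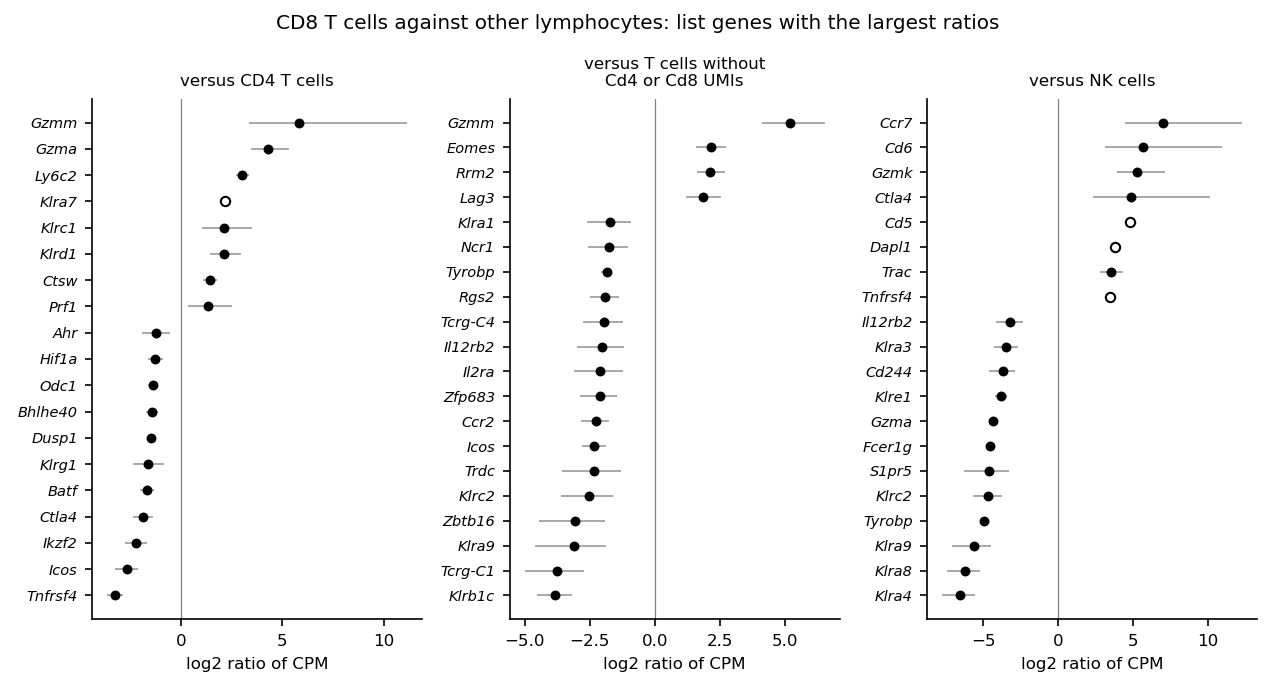
Points give log2 ratios of CPM, CD8 T cells over CD4 T cells, T cells without Cd4 or Cd8 UMIs, and NK cells, for up to 20 of the called list genes with the largest ratios in each; lines are exact 95% intervals and open circles are bounds where the other side had no UMI. Gzmm leads against both T cell classes, and Ccr7 and Klra4 mark the ends against NK cells.

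Within the CD8 T cells, those with a Gzmk UMI and those with a homing gene UMI differed across most lists. Gzmk was detected in 113 cells (7, 78, 6 and 22 in libraries 1 to 4, or 5.51, 28.7, 6.06 and 24.2%), and 330 others had a UMI of at least 1 of 3 homing genes, Ccr7 and Lef1 among them, but none of Gzmk. Of the 113, 29 also had a homing gene UMI, and 146 cells had neither. The medians were 4091 and 3167.5 UMIs, and only libraries 2 and 4 held 20 cells of both, so the calls speak for those. The 4 splitting genes are no result. Of 4785 genes 7.69% were higher in Gzmk-detected cells and 3.34% lower.

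All 9 measured inhibitory receptor and exhaustion genes were higher in Gzmk-detected cells, with a median log2 ratio of 2.88 beside 0.22 over all genes. The 9 include Rgs16, whose level by library was not read as that of the T cells above. Pdcd1 was at 239 against 4.11 CPM (58 of 113 against 4 of 330 cells; log2 5.86, 4.61 to 7.50). Tigit was at 231 against 23.8 CPM (log2 3.27, 2.70 to 3.90) and Lag3 at 96.9 against 9.05 CPM (log2 3.42, 2.50 to 4.49). Tox was at 106 against 17.3 CPM, from 51 and 20 cells (log2 2.62, 1.91 to 3.39). In library 2 the ratios were 5.25 for Pdcd1, 2.85 for Tigit, 3.21 for Lag3 and 2.55 for Tox, and in library 4 they were 2.56 for Tigit, 0.56 for Lag3 and 0.88 for Tox.

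Effector genes were higher as well. The chemokines Ccl3 and Ccl4, which draw other leukocytes, were at 471 against 3.29 CPM and 1711 against 83.1 CPM, where 1 cell held 31.0% and 25.4% of the UMIs. Gzmb was at 1287 against 206 CPM (83 of 113 against 43 of 330 cells; log2 2.64, 2.44 to 2.85), and 7 of 10 granule genes were higher. Gzmm went the other way, at 31.4 against 176.8 CPM (log2 -2.49, -3.18 to -1.87). Ifng was at 126 against 14.8 CPM, with 39.1% of its UMIs from 1 cell. All 16 proliferation genes were higher, such as Mki67 at 194 against 25.5 CPM (log2 2.93, 2.36 to 3.54) and Birc5 at 311 against 44.4 CPM. Without the 10 cells of over 20000 UMIs, 7 of which were Gzmk-detected and none in the homing class, 11 of 16 were.

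Of 8 further homing and quiescence genes 7 were lower in Gzmk-detected cells. Il7r was at 25.9 against 431 CPM (log2 -4.06, -4.80 to -3.40), Tcf7 at 13.6 against 144 CPM (log2 -3.40, -4.48 to -2.49) and Satb1, a chromatin organizer of young T cells, at 17.7 against 169 CPM. Dapl1 had 1 UMI in the 113 cells, at 1.36 against 78.9 CPM, and Tmem108 1 UMI, at 1.36 against 60.9 CPM. Id3, which supports memory precursors, was at 19.1 against 105 CPM. Kbtbd11, Nsg2 and Rgs10, outside the lists, were lower by log2 ratios of -3.79, -3.70 and -3.54. Igkc, an antibody light chain, had no UMI in the homing class and 86 UMIs in 35 of the Gzmk-detected cells, while Cd79a was at 0 by the rule, and the B and plasma cell list summed to 139 against 110.2 CPM. The neutrophil list was at 199.2 against 6.58 CPM and the CD4 and regulatory list at 224 against 55.1 CPM, and their part in these differences was not tested. The largest ratios outside the lists, those of Elane, Mpo, Ctsg and Prtn3, came from the 1 cell of library 4 described above.

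The call counts were sensitive to depth. Thinned to 1000 UMIs they were 76 higher and 46 lower in place of 368 and 160, and without library 2 they were 223 and 64. Without library 2 the log2 ratio of Gzmm was -0.73, under the size, and those of Gzmb, Il7r, Ccl3 and Satb1 were 3.57, -3.06, 6.25 and -4.85. Ccl4 was at 3.77, Dapl1 at -3.99 (-4.04 without library 1), Nsg2 at -2.35, Rgs10 at -2.78 and Kbtbd11 at -2.90. Id3 was at -1.40 without library 2 and -3.24 without library 4, and Ifng at 3.79 and Tmem108 at -3.70 without library 4.

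**Figure D4:**
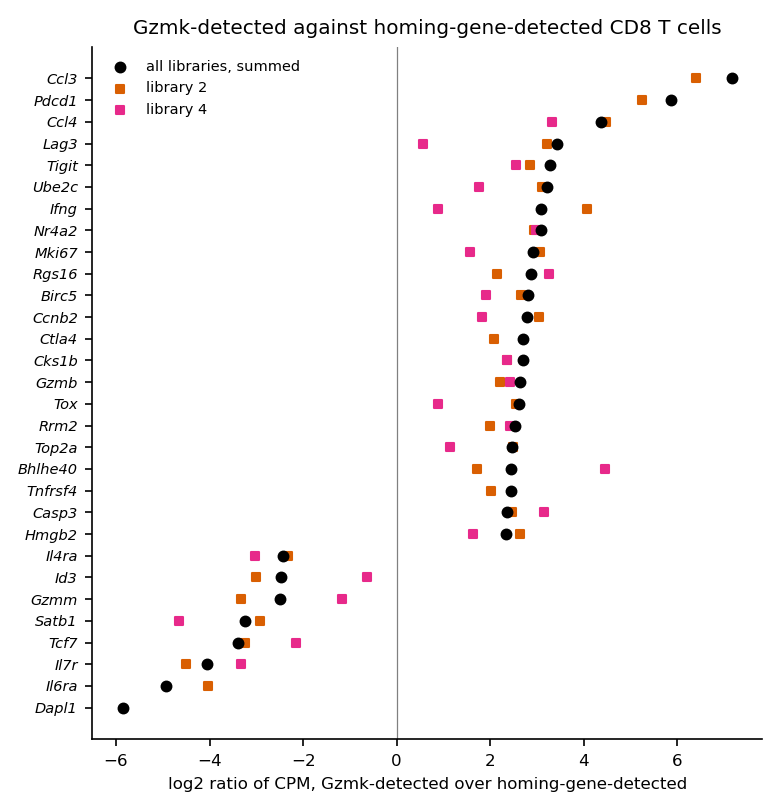
Circles give log2 ratios of CPM, Gzmk-detected over homing-gene-detected CD8 T cells, over all libraries, and squares give libraries 2 and 4 where both sides had UMIs. Inhibitory receptors, chemokines and proliferation genes lie to the right and Il7r, Tcf7, Satb1 and Dapl1 to the left, in both libraries where both are shown.

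Co-detection was counted at an equal depth. Among 580 cells thinned to 1000 UMIs, Gzmk and Pdcd1 met in 12 cells, against 3.62 from the product of their shares within each library. Gzmk met Tox in 10 cells against 2.88, and Gzmb in 32 against 14.8. No cell held both Gzmk and Ccr7, against 6.20, and 1 held Gzmk and Il7r, against 11.4. Gzmb and Mki67 met in 15 cells against 5.92. Of the homing genes, Ccr7 and Tcf7 met in 23 cells against 11.1. These are counts of a pooled sample with no test.

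Pdcd1 was detected in 72 CD8 T cells (4, 54, 2 and 12 by library), which share 58 cells with the Gzmk-detected ones, so both comparisons rest partly on the same cells. Of 5647 genes 6.20% were higher and 5.95% lower than in the 517 others. The medians were 5350.5 and 2925 UMIs, and only library 2 held 20 cells of both, so no library checks another here. Gzmk was detected in 58 of the 72 against 55 of 517 cells, at 430.2 against 92.5 CPM (log2 2.22, 1.93 to 2.51). Of 9 other inhibitory and exhaustion genes 7 were higher, Rgs16 again among them. Lag3 was at 120.3 against 12.5 CPM (log2 3.26, 2.57 to 4.00) and Ctla4 at 91.1 against 14.1 CPM. The costimulatory receptors Tnfrsf4 and Tnfrsf9, which encode OX40 and 4-1BB, were at 129 against 8.88 CPM (17 of 72 against 6 of 517 cells) and 135 against 30.8 CPM. Ikzf2, known as Helios, was at 63.8 against 13.6 CPM.

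Lower in Pdcd1-detected cells were 11 of 12 homing genes. Il7r was at 23.7 against 309 CPM (log2 -3.71, -4.62 to -2.92) and Tcf7 at 12.8 against 105 CPM (log2 -3.04, -4.37 to -1.97). Gzmm was at 5.47 against 132 CPM, found in 2 of 72 against 111 of 517 cells. In thinned cells, with both classes drawn again from the thinned counts, 92 genes were higher and 29 lower, in place of 350 and 336. The log2 ratios were then -0.15 for Gzmm and -1.96 for Tcf7, neither of which was called. Of the homing list, Ccr7 (-2.41), S1pr1 (-1.76) and Satb1 (-0.36) also lost the call, while Il7r (-3.62) kept it. Of 16 proliferation genes 13 were higher, and 0 of 5 measured were in thinned cells. Without library 2 no library had 20 cells of both sides.

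Receptor V segments were read in most CD8 T cells. The labels name a 3′ kit, which reads the end of a message away from the V segment, so which end was read here is not settled and shares of cells with a segment hold for these libraries only. A beta chain segment (Trbv) had a UMI in 79.1% of them (77.2, 89.3, 48.5 and 84.6% in libraries 1 to 4) and an alpha chain segment (Trav) in 45.0%. Among NK cells, which do not assemble a T cell receptor, Trbv was found in 2 of 309 and Trav in 0 of 309, which allows a share of up to 0.971%, and among hepatocyte barcodes Trbv was found in 5 of 7823. Both of these classes were chosen without a Cd3 UMI, which bears on their low shares. The segment with most UMIs in a cell was taken as its segment. In libraries 1 to 4, 25, 130, 8 and 46 CD8 T cells had both a leading Trbv and a leading Trav segment, in 23, 93, 8 and 32 different pairs. Of the CD8 pairs, 3 recurred in 5 or more cells of 1 library, and these were singled out after their values were seen. Recurrence was not particular to CD8 T cells. In library 2, Trbv1 with Trav12-1 was in 6 of 21 paired CD4 T cells (28.6%, 11.3 to 52.2). It was also in 4 of 58 paired T cells without Cd4 or Cd8 UMIs there.

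In library 4, Trbv13-2 with Trav8d-2 was found in 14 of 46 paired cells (30.4%, exact interval 17.7 to 45.8). In library 2, Trbv29 with Trav6-4 was found in 11 of 130 (8.46%, 4.30 to 14.6) and Trbv13-2 with Trav13-1 in 7. The most frequent pair of library 1, Trbv31 with Trav7-4, was in 3 of 25 cells. With at least 2 UMIs required of each segment, the 3 recurrent pairs were in 10 of 31, 11 of 75 and 4 of 75 cells. Trbv29 with Trav6-4 was in no CD8 T cell of the other libraries, no CD4 T cell and no T cell without Cd4 or Cd8 UMIs. Trbv13-2 with Trav8d-2 was also in 1 T cell without Cd4 or Cd8 UMIs in each of libraries 1 and 4, and Trbv13-2 with Trav13-1 in 1 CD4 T cell of library 3 and 1 T cell without Cd4 or Cd8 UMIs of library 1. Cells of 1 pair can come from 1 clone or from several, since the joined region between V and J was not read.

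**Figure D5:**
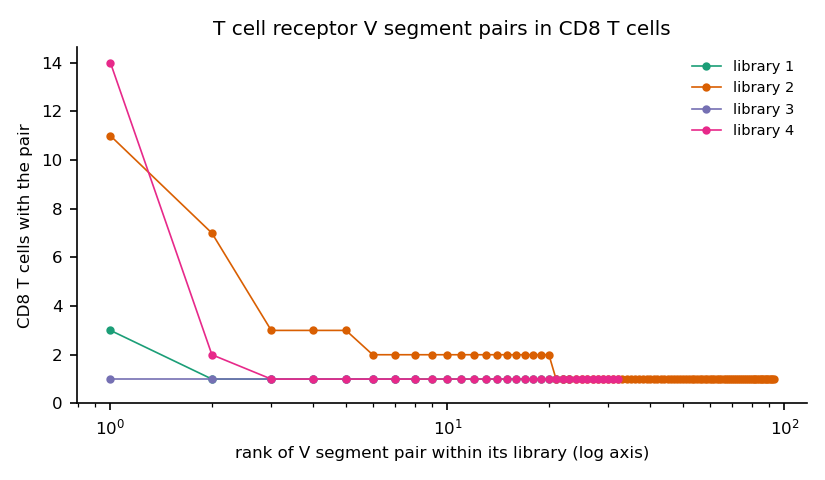
Lines rank the V segment pairs of each library by how many CD8 T cells carried them, with the rank on a log axis. Library 4 starts at 14 cells and library 2 at 11 and 7 cells, while nearly all other pairs were seen in 1 to 3 cells.

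The 5 segments of these pairs are shown by the last 72 bases of their germline transcript (GENCODE M21, GRCm38, 5′ to 3′), with the TGT codon of the conserved cysteine that opens the CDR3 loop in capitals. They are shown because the V segment's own share of that loop is the few bases after this codon.
Trbv13-2: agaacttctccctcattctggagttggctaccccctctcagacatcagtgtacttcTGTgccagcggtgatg
Trbv29: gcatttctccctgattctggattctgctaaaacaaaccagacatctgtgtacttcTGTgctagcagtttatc
Trav8d-2: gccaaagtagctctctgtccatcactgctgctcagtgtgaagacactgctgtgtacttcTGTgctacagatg
Trav6-4: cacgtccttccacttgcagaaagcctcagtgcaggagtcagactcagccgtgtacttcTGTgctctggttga
Trav13-1: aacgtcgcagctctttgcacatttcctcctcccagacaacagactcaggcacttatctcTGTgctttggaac
Several of these genes have close copies. Over 240 bases Trav6d-4 was 97.1% identical to Trav6-4, Trav13d-1 96.2% to Trav13-1, Trav8-2 93.8% to Trav8d-2 and Trbv13-3 90.8% to Trbv13-2, and none of these copies had a UMI in the cells of the pair. How the authors' counting assigned reads that fit several copies is unknown here, so a named alpha segment may stand for its family.

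Cells of the 3 pairs differed in the genes they expressed from the other paired CD8 T cells of their library. All 11 cells with Trbv29 and Trav6-4 had a Gzmk UMI, against 37 of the 119 others, at 787 against 227 CPM (log2 1.79, 1.36 to 2.21). Lag3 was at 208 against 43.0 CPM (8 of 11 cells; log2 2.27, 1.35 to 3.16), Tnfrsf9 had the same values from 6 cells, and Pdcd1 was at 262 against 131 CPM in 7 of 11 cells (log2 1.01, 0.29 to 1.67). Il7r and Ccr7 had no UMI in the 11 cells, against 47 and 28 of the 119 others. Gzmm had 1 UMI, at 10.9 against 121 CPM. The median depth of the 11 cells was 9383 UMIs against 4474.

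The 14 cells with Trbv13-2 and Trav8d-2 were compared with the 32 others of library 4. Gzmb was at 2237 against 212 CPM and in 10 of 14 against 9 of 32 cells (log2 3.40, 2.80 to 4.04). Ly6c2 was at 114 against 2175 CPM and in 2 of 14 against 26 of 32 cells (log2 -4.25, -5.89 to -3.01). Isg15, an interferon response gene, was at 502 against 113 CPM (log2 2.15, 1.16 to 3.18), Cd160 at 365 against 127 CPM and Cxcr3 at 297 against 120.1 CPM. Ccr7 and Gzmm had no UMI in the 14 cells, against 11 and 12 of the 32 others. These cells were shallower than the others, with a median of 2212.5 against 4047 UMIs, and 2 of the 14 had a doublet score above 0.25.

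The 7 cells with Trbv13-2 and Trav13-1 in library 2 held more proliferation messages. Mki67 was at 699 against 64.8 CPM (4 of 7 against 22 of 123 cells; log2 3.43, 2.79 to 4.07) and Ube2c at 1096 against 89.8 CPM. Gzmb was at 2176 against 654 CPM (log2 1.73, 1.45 to 2.01), and Ccl4 was lower, at 95.3 against 759.8 CPM. The median depth was 7994 against 4423 UMIs, and 1 of the 7 had a doublet score above 0.25. Whether cells of a pair descend from 1 cell was not tested, so the intervals count molecules and not independent cells.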

How the data were processed

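The deposited counts are UMIs per gene and barcode with no normalization, and per the file headers come from Cell Ranger 6.0.1. A 10x 3′ kit is named, per the labels' protocols, and the build is mm9, per the submitters' processing notes, with no annotation named, so no coordinates are printed; V segment sequences were matched to GENCODE M21 by gene identifier (163 of 163). The members, the 17 function lists and the 10 marker lists (224 of 225 function genes measured) were chosen with earlier results of these data known. Counts were summed per class and scaled to CPM, with exact Poisson, Clopper-Pearson and conditional binomial 95% intervals (Python 3.11.15, pandas 2.3.3, scipy 1.17.1). A side with no UMI was set to 3 counts over the group to give a bound. Named genes are the called list genes with the largest ratios, up to 30 a comparison and 8 a list, and up to 5 others each way; across libraries, list genes with at least 50 UMIs. Results of some genes, 1 of them a homing gene used in the Gzmk split, are not reported here. Genes of the V pair comparison are list genes chosen after their values were seen. Doublets were scored with Scrublet in scanpy 1.11.5 and kept. Hepatocyte barcodes had no Ptprc or Cd3 UMI and at least 5% hepatocyte list UMIs. The comparison code was tested on simulated data. Alternatives changed the cell filter, doublets, the Cd8 minimum, libraries, weights, depth and the UMI minimum. Ratios were computed for every gene of the table, and no test between groups was made.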

Additional observations from a re-analysis of the deposited data

How the results depend on the processing

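No group had a replicate, so stability here means only that a count or ratio stayed near its value. The share of CD8 T cells, 1.63%, was 1.26% with at least 2 Cd8 UMIs, 2.21% with the stricter cell filter and 3.75% among barcodes with under 2% hepatocyte UMIs, and ran from 1.13 to 1.89% with 1 library left out. A UMI minimum of 20 gave 159 genes lower than in CD4 T cells, 233 higher and 385 lower than in NK cells, 184 and 247 against T cells without Cd4 or Cd8 UMIs, 616 and 291 for the Gzmk split and 546 and 506 for the Pdcd1 split. A minimum of 200 gave 25 and 14, 40 and 66, 38 and 44, 105 and 33, and 82 and 81 in the same order (CD4 first). Thinned cells gave 29 and 20, 62 and 128, 31 and 87, 76 and 46, 92 and 29, and 50 list genes by library. Equal library weights gave 155 and 160 against CD4 T cells and 73 higher against T cells without Cd4 or Cd8 UMIs. With 1 library left out the counts ran from 95 to 155 higher than in NK cells, from 72 to 180 higher than in T cells without Cd4 or Cd8 UMIs, from 223 to 394 higher and 64 to 189 lower for the Gzmk split, and from 47 to 77 list genes by library. Of 2279 alternative values of 196 named ratios, 2228 kept their direction and call, 50 kept their direction only, and 1 reversed: Fcer1g in Pdcd1-detected cells was 0.031 when thinned, against -2.21. The cause was not tested. Fewer UMIs remain after thinning, and the Gzmk and Pdcd1 classes were drawn again from the thinned counts. Thinned values of these splits thus compare other groups of cells. These totals have limits. A changed UMI minimum could not alter a ratio or a call, and named genes with too few UMIs in an alternative gave no value. Of 40 named genes each, thinning left values for 4 of the Gzmk split, all still called. In the Pdcd1 split 7 of 40 were still called, 7 lost the call and 1 reversed. Alternatives added after seeing the data, without 3 cells holding other-lineage genes or 10 cells of over 20000 UMIs, kept every total count within 1.5 times. No paired analysis was possible because no label pairs barcode suffixes with samples or replicates.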

Other observations

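Libraries 2 and 4 shared a pattern in the CD8 T cells, as did libraries 1 and 3, in genes of T cells and in hepatocyte messages alike. In 24 of 159 measured list genes both libraries 2 and 4 had intervals above those of libraries 1 and 3, beside 275 of 5653 genes (4.86%). Among the 24 were Gzmb, Gzmk, Gzmm, Ccl5, Cd160, Cxcr3 and Ly6c2, and also Igfbp4 of the homing list. The reverse held for 6 list genes (Lef1, Tcf7, Il7r, Trbc1, Trbc2 and Fcer1g) and 97 genes (1.72%). Libraries 3 and 4 stood above libraries 1 and 2 in 5 list genes, the heat shock genes Hspa1a, Hspa1b and Dnajb1 with Btg2 and Srgn, and no list gene followed the other 3 ways to pair the libraries. The grouping was seen in the data, no label gives it, and the median depth of the CD8 T cells was 2031, 4093, 2318 and 2958 UMIs in libraries 1 to 4.

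The widest gaps between these pairs in CD8 T cell barcodes were in liver genes, chosen after their values were seen. H19, an imprinted RNA of fetal liver, was at 0, 1018, 26.0 and 717 CPM in the CD8 T cells of libraries 1 to 4 and at 0.193, 2941, 498 and 2935 CPM in all filtered barcodes. Igf2, its imprinted neighbour, was at 0, 245, 0 and 159 CPM, and Afp, alpha-fetoprotein, at 3.22, 117, 3.72 and 72.3 CPM. Glul, the pericentral enzyme that makes glutamine, was at 22.6, 1922, 227 and 1811 CPM. Mup7, a major urinary protein secreted by hepatocytes, was at 2243, 0, 2011 and 0 CPM, and at 4754, 0.566, 12342 and 1.92 CPM in all filtered barcodes. For H19 and Mup7 the high pair of libraries was the same in CD8 T cells and in all filtered barcodes, and the part of this RNA in the T cell genes was not tested. Gzmb, Gzmk and Cxcr3 stood at or under 0.353 CPM in the hepatocyte barcodes of every library. Those barcodes were chosen without a Ptprc or Cd3 UMI, so low T cell genes there partly follow from that choice.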
